A study of Mus musculus with 12 samples.

Results

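Ifi30 and 8 genes of antigen presentation on MHC class II, 9 of the 21705 genes measured, were followed in the livers of mice treated with inhibitors of miR-29. Ifi30 was picked because its level was higher in LNA29-treated livers, so its values in that comparison are a description without a test. The other 8, H2-Aa, H2-Ab1, H2-Eb1, H2-DMa, H2-DMb1, Cd74, Ciita and Ctss, were taken for their known roles in the same pathway. Livers came from female C57BL/6J mice, 10 to 12 weeks old, that received one tail-vein injection of saline (n = 6) or of LNA29 (n = 6), a mixture of locked nucleic acids (LNAs), chemically stabilised oligonucleotides against miR-29a and against miR-29b and miR-29c, at 20 mg/kg each. Tissue was taken on day 7 after an 18 h fast. Whole liver was sequenced, and no control LNA was among these 12 libraries, so an effect of miR-29 inhibition and an effect of the LNA itself cannot be told apart. Livers are named by the number in their label, 43 to 53 (odd) for saline and 44 to 54 (even) for LNA29.

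MHC class II molecules carry peptides from engulfed proteins to the cell surface for CD4 T cells. Ifi30 encodes GILT, a thiol reductase of lysosomes that opens disulfide bonds so that engulfed proteins can be cut, and cathepsin S (Ctss) trims both these proteins and the invariant chain. The α and β chains (H2-Aa, H2-Ab1, H2-Eb1) assemble with the invariant chain (Cd74), H2-DM (H2-DMa, H2-DMb1) exchanges its remnant for peptide, and Ciita switches on transcription of the class II genes. In liver these genes are known from Kupffer cells, dendritic cells and B cells rather than from hepatocytes. C57BL/6 mice carry a defective E α gene, so that their cells make only the A form of class II at the surface.

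The 3 miR-29 family members share a seed, the bases by which a microRNA chooses its targets, shown in capitals (RefSeq, GRCm38.p6).
miR-29a-3p (chr6:31062673-31062694, minus strand): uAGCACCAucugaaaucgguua
miR-29b-3p (chr1:195037091-195037113, plus strand): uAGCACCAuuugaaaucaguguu
miR-29c-3p (chr1:195037600-195037621, plus strand): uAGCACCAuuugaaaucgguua
The complement of this seed was sought in 1 transcript of each gene of GENCODE M21 (GRCm38), a build later than the mm9 of the deposited table. It occurred once in Ifi30, in exon 7 of 7, 39 bases from the transcript's end and after its longest open reading frame.
Ifi30 (chr8:70762802-70762831, minus strand, seed match in capitals): cttattttcaaaTGGTGCTaaatttaaatt
The unbroken pairing at this place ran from base 1 to base 15 of miR-29b and of miR-29c, and over 9 bases of miR-29a. Among 11344 tested genes with a transcript, 3867 (34.1%) held the seed match somewhere and 93 (0.820%) held it in the last 100 bases. For miR-29b, 4 genes had a run of 12 bases or more, and Ifi30 was the 1 gene with 14 or more. Of the other members, H2-Ab1 had 2 matches in exon 1 within its open reading frame, with a run of at most 9 bases, and Ciita had 1 in exon 19, with a run of 7. The transcripts of H2-Aa, H2-Eb1, H2-DMa, H2-DMb1, Cd74 and Ctss held none. Binding was not measured, and GENCODE M21 lists the Ifi30 transcript as a processed transcript while RefSeq lists the gene as protein coding.

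Of the 9 members, all passed a filter of a mean value of at least 10, which 12486 genes passed. Values are the deposited ones, scaled by the authors so that the upper quartile of detected genes is close to 1000, with a gene without reads at 1. One read was worth between 9.80 and 24.4 units, so that members with values near 100 rest on about 10 reads or fewer. Libraries held 7696081 to 19062437 reads on genes. Albumin took 35.7% of the reads in saline replicate 49 and 43.6% to 46.9% in the other 11 livers, and the relation of level to transcript length (Spearman's rho across 12217 genes) was 0.496 in this library and between -0.295 and 0.276 elsewhere. LNA29 replicate 48 stood apart in the class II genes themselves, as described below, and values without it are given beside those of the class II genes and of the lists it moves. Its rho of level with transcript length was -0.245, and that of saline replicate 47 was -0.295. These livers had the highest Cd74 of their groups, and saline replicate 49 had the lowest Cd74 of the saline livers.

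Ifi30 was higher in every LNA29 liver than in any saline liver. In saline livers its lowest, median and highest values were 281, 478 and 965, and in LNA29 livers 1019, 1291 and 2192. The groups did not overlap, although the highest saline liver (replicate 47, at 965) came close to the lowest LNA29 liver (replicate 52, at 1019). The mean was 545 ± 241 in saline and 1483 ± 525 in LNA29 livers (SD, n = 6 each), a ratio of 2.72. The log2 fold change on the log2(value + 1) scale was 1.48 (standard error 0.28), between 1.31 and 1.67 when 1 liver was left out, and 1.37 without LNA29 replicate 48. It was 1.43 without saline replicate 49 and 1.45 with the length relation of each library as a covariate. Each liver had between 18 and 160 reads for Ifi30. Across all 12486 tested genes, 34 (0.272%) had every LNA29 liver above every saline liver, and limma called 20 genes (0.16%) at an adjusted p under 0.05, of which 9 (0.0721%) were higher and 11 (0.0881%) lower. Ifi30 was chosen from this contrast, so nothing is read from these shares. In whole liver, more cells that hold a transcript and more transcript per cell cannot be told apart.

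None of the other 8 members passed the same test (0 of 8, limma with Benjamini-Hochberg adjustment over 12486 genes), and their groups overlapped in each case. At an unadjusted p under 0.05 the count was also 0 of 8, against 7.91% of all tested genes. None of the 8 had every LNA29 liver above every saline liver or every LNA29 liver below (0.713% of tested genes had the latter). The smallest p that the exact permutation test of 6 against 6 livers can give for a single gene is 0.00216.

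**Figure D1:**
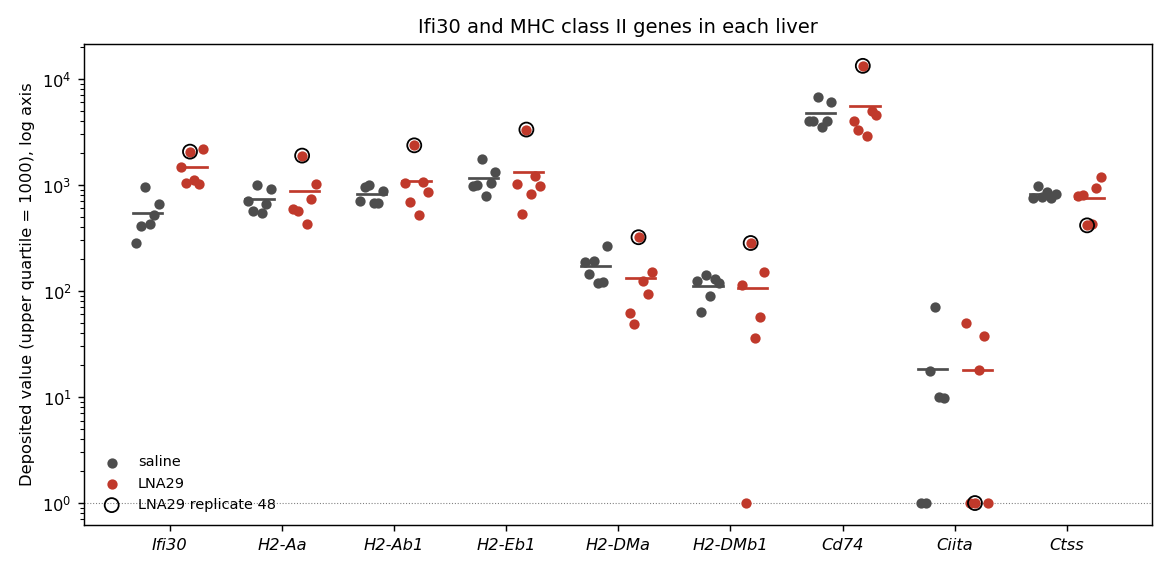
Deposited value of each gene (log axis) in 6 saline (grey) and 6 LNA29 (red) livers, 1 point per liver, with short lines at the group means and LNA29 replicate 48 ringed. Ifi30 separates the groups, while the other 8 genes overlap and replicate 48 has the highest value of Cd74, H2-Aa, H2-Ab1, H2-Eb1, H2-DMa and H2-DMb1.

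The peptide-binding chains overlapped between the groups, and none passed the test. H2-Aa, the A α chain, had lowest, median and highest values of 540, 680 and 1000 in saline and 429, 662 and 1887 in LNA29 livers. The medians lay close together, and the highest LNA29 value was that of replicate 48. Its log2 fold change was 0.10 (95% interval -0.52 to 0.72, limma adjusted p = 0.970, exact permutation p = 0.797), and -0.16 without replicate 48. H2-Ab1, the A β chain, had values of 677, 793 and 1000 in saline and 518, 957 and 2358 in LNA29 livers. Here 3 LNA29 livers lay above every saline liver and 1 lay below. Its log2 fold change was 0.26 (95% interval -0.32 to 0.84, limma adjusted p = 0.878, exact permutation p = 0.502), and 0.00072 without replicate 48. H2-Eb1, the E β chain, had values of 780, 1025 and 1772 in saline and 537, 999 and 3321 in LNA29 livers. Its log2 fold change was -0.015 (95% interval -0.70 to 0.67, limma adjusted p = 0.993, exact permutation p = 0.965), 0.031 with all livers brought to one median, and -0.33 without replicate 48. Changes within these intervals could not be told from 0.

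Cd74, the invariant chain, was the most abundant member. Its lowest, median and highest values were 3500, 4028 and 6772 in saline and 2911, 4286 and 13245 in LNA29 livers. Of the LNA29 livers, 5 lay between 2911 and 5000, within or just below the saline range, and replicate 48 lay far above the highest saline liver. The mean was 4728 ± 1341 in saline and 5499 ± 3873 in LNA29 livers (SD, n = 6 each), and 3950 ± 865 in the 5 LNA29 livers other than replicate 48. The log2 fold change was 0.052 (95% interval -0.56 to 0.66, limma adjusted p = 0.981, exact permutation p = 0.909), and -0.24 without replicate 48 (adjusted p = 0.815 in limma). Ctss, the protease that degrades the invariant chain, had values of 747, 793 and 968 in saline and 415, 796 and 1192 in LNA29 livers. The medians were nearly equal, and the LNA29 livers were more spread, with replicates 48 and 50 lowest. The log2 fold change of Ctss was -0.20 (95% interval -0.70 to 0.30, limma adjusted p = 0.893, exact permutation p = 0.422), and -0.050 without replicate 48.

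The peptide exchange factor H2-DM rested on few reads. H2-DMa had values of 120, 165 and 265 in saline and 48.8, 110 and 321 in LNA29 livers, from 2 to 27 reads. In this gene 3 LNA29 livers lay below every saline liver and 1, replicate 48, lay above. Its log2 fold change was -0.58 (95% interval -1.45 to 0.29, limma adjusted p = 0.796, exact permutation p = 0.208). Without replicate 48 it was -0.89, with an unadjusted limma p of 0.0276 and an adjusted p of 0.509. H2-DMb1 had values of 63.5, 122 and 140 in saline and 1, 84.6 and 283 in LNA29 livers, from 0 to 15 reads. LNA29 replicate 46 had no read for it, so its fold change depends on the value given to 0 reads. The log2 fold change of H2-DMb1 was -1.05 (95% interval -2.85 to 0.75, limma adjusted p = 0.830, exact permutation p = 0.409), -0.63 with 10 in place of 1 added before the log, -0.11 without replicate 46 and -1.54 without replicate 48. Ciita, the class II transactivator, had between 0 and 7 reads per liver, with means of 1.67 in saline and 1.17 in LNA29 livers. Both means lay under the floor of 3 reads, and no fold change is given: a difference in Ciita was not detectable at this depth.

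On a scale of deposited value per kilobase of transcript, levels can be ordered between genes. The saline median was 2857 per kilobase for Cd74, 654 for H2-Ab1, 614 for H2-Eb1, 603 for H2-Aa, 585 for Ctss, 487 for Ifi30, 87.0 for H2-DMb1, 82.4 for H2-DMa and 1.66 for Ciita. The 5 genes from H2-Ab1 to Ifi30 overlapped in their ranges over saline livers, as did H2-DMb1 and H2-DMa. In LNA29 livers the median of Ifi30 was 1316 per kilobase, second to Cd74 at 3040, and H2-Ab1 followed at 789. There the range of Ifi30, 1039 to 2234, overlapped those of Cd74 (2064 to 9394) and H2-Ab1 (427 to 1946). The higher place of Ifi30 restates the rise for which it was picked.

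The class II genes moved together from liver to liver. Deviations of log2 values from the mean of their own group were compared with those of Cd74 over the 12 livers, in 16 relations in all, the 8 other members and 8 lists of cell type markers, with 100000 permutations within groups. H2-Eb1 had a Pearson's r of 0.955 (permutation p = 0.00027, adjusted p = 0.00216) and a Spearman's rho of 0.895 (permutation p = 0.00034). H2-Aa had an r of 0.950 (permutation p = 0.00017, adjusted p = 0.00216) and a rho of 0.951. H2-Ab1 had an r of 0.921 (permutation p = 0.00084, adjusted p = 0.00448) and a rho of 0.790. In H2-DMa the r was 0.775 (permutation p = 0.0131, adjusted p = 0.0353), and in H2-DMb1 it was 0.590 (permutation p = 0.181, adjusted p = 0.241). Ctss did not follow Cd74, with an r of -0.313 and a rho of -0.119 (adjusted p of r = 0.573, permutation test). Ciita had an r of -0.210 (adjusted p = 0.641, permutation test). The length relation of each library was not a covariate in these comparisons, and its part in them was not tested.

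Part of these relations rested on a few livers. With the 2 livers farthest from the median of Cd74 left out, LNA29 replicate 48 and saline replicate 47, r was 0.865 for H2-Aa, 0.814 for H2-Eb1, 0.771 for H2-Ab1, 0.513 for H2-DMa and 0.463 for H2-DMb1. Without LNA29 replicate 48 alone, H2-Aa (r = 0.883, adjusted p = 0.0115), H2-Eb1 (r = 0.865, adjusted p = 0.0115) and H2-Ab1 (r = 0.766, adjusted p = 0.0438) still passed the permutation test, and H2-DMa did not (r = 0.470, adjusted p = 0.305). H2-DMa failed the threshold in 8 of the 12 fits that left out 1 liver. The relation of Ctss turned from -0.313 to 0.411 without this liver (permutation test, adjusted p = 0.305). Ifi30 followed Cd74 more loosely, with an r of 0.633 (permutation p = 0.0132, adjusted p = 0.0353) and a rho of 0.566 (permutation p = 0.0720). Its r was 0.441 without the 2 farthest livers and 0.673 without LNA29 replicate 48 (permutation test, adjusted p = 0.124). The relation of Ifi30 failed the threshold in 8 of the 12 fits that left out 1 liver, namely saline replicates 45, 47, 49 and 53 and LNA29 replicates 44, 46, 48 and 50, and with group means kept (r = 0.396, adjusted p = 0.254, permutation test).

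**Figure D2:**
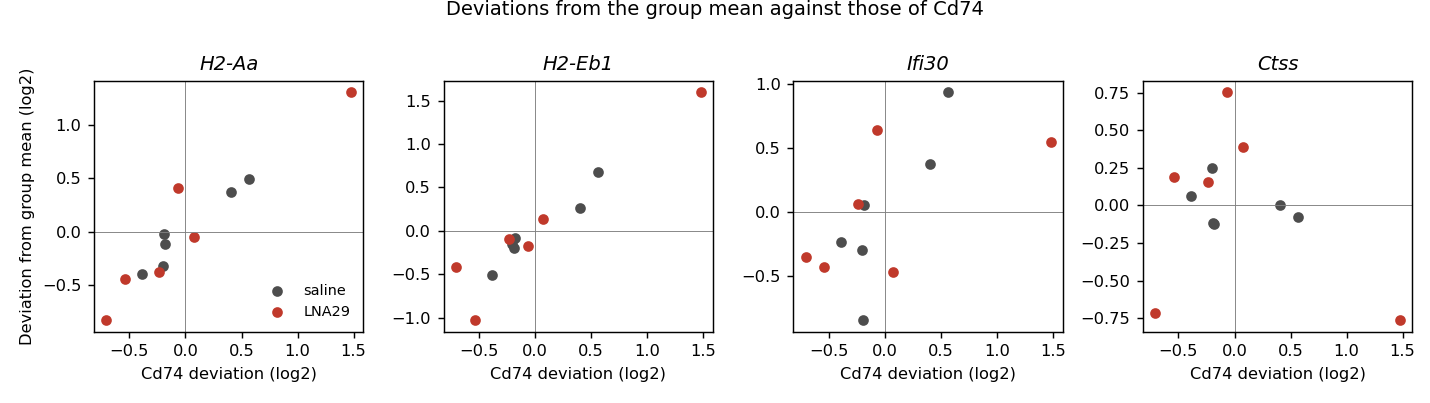
Deviation of log2(value + 1) from the mean of the own group for H2-Aa, H2-Eb1, Ifi30 and Ctss (vertical) against that of Cd74 (horizontal), 1 point per liver, grey for saline and red for LNA29. H2-Aa and H2-Eb1 lie along a line with Cd74 (r = 0.950 and 0.955), Ifi30 does so less closely (r = 0.633), and the point far to the right in each panel is LNA29 replicate 48.

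LNA29 replicate 48 held 3.35 times the mean Cd74 level of the other 5 LNA29 livers. The ratio was 3.64 for H2-Eb1, 2.84 for H2-Aa, 2.83 for H2-Ab1, 3.33 for H2-DMa and 3.97 for H2-DMb1, and this liver had the highest value of all 12 for each of the 6 genes. Of 8990 genes with a mean of at least 100, 1.90% reached a ratio of 2.5 or more in this liver, and it was the highest of the 12 livers in 13.3% of the 12486 tested genes. Ifi30 was not highest in it, at 2057 against 2192 in LNA29 replicate 54. Ctss was low in the same liver, at 0.50 times that mean. Cd79a, a part of the B cell receptor, also stood high in it, at 396 against 82.2 to 189 in the other LNA29 livers. Saline replicates reached 461 for Cd79a, while the summed B cell list was 642 in LNA29 replicate 48 and up to 706 in saline livers, and Ms4a1, Pax5 and Cr2 had no read in it. Aif1, a macrophage gene, was at 340 against 53.6 to 125, and 4 of 17 Kupffer cell and macrophage genes, C1qa, C1qb, C1qc and Aif1, had their highest value of 12 livers there. Others of that list were low in it, with Vsig4 at 113 against 146 or more and Timd4 at 189 against 208 or more in the other LNA29 livers. No single gene of 10 dendritic cell markers was highest there, but the mean log2 level of that list was the highest of the 12 livers, 4.51 against 4.33 in the next. The part of these cells in the high class II level of replicate 48 was not tested.

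**Figure D3:**
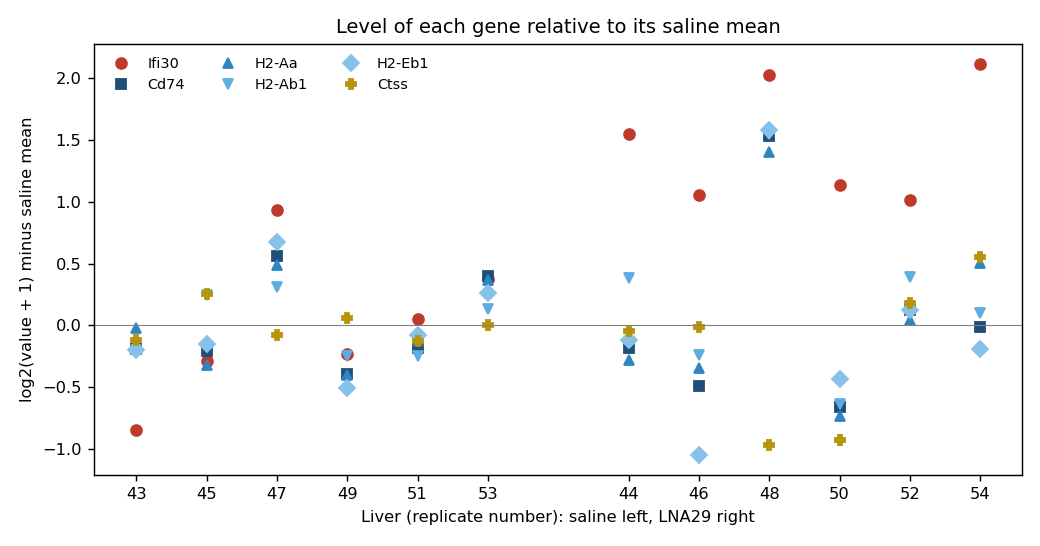
Level of 6 genes in each liver as log2(value + 1) minus the saline mean of the gene, with saline livers on the left and LNA29 livers on the right. Ifi30 (red circles) lies above its saline mean in all 6 LNA29 livers, while Cd74, H2-Aa, H2-Ab1 and H2-Eb1 rise together in LNA29 replicate 48 and Ctss is low there.

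Over the 12 livers, the mean log2 level of marker lists gave looser relations with Cd74 than the class II chains did. The B cell list had an r of 0.644 (adjusted p = 0.122, permutation test), which was 0.217 without LNA29 replicate 48. The dendritic cell list had an r of 0.527 (adjusted p = 0.138) and the Kupffer cell and macrophage list an r of 0.380 (adjusted p = 0.431), both by the permutation test. The stellate cell list had an r of -0.631 (adjusted p = 0.168), which was 0.018 without LNA29 replicate 48, and the T and NK cell list one of 0.558 (adjusted p = 0.241, permutation tests). The hepatocyte list passed at r = 0.465 (adjusted p = 0.0353, permutation test), with an r of 0.298 after the 2 farthest livers were left out. It did not pass by rho (0.636, adjusted p = 0.0722) or without LNA29 replicate 48 (r = 0.511, adjusted p = 0.305), both by the permutation test. Dendritic cell markers were close to their limit of detection, with summed values of 60.6 to 193 in saline and 110 to 151 in LNA29 livers, and 5 of 10 passed the filter on low values.

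Among 8989 other genes with a mean of at least 100, those whose deviations were most like those of Ifi30 were not class II genes. Clec4f, a lectin of Kupffer cells, came second with an r of 0.950, after Rabggta (0.953), a subunit of Rab geranylgeranyl transferase, and before Lars2 (0.921), the mitochondrial leucyl-tRNA synthetase, Pigu (0.920) and Nasp (0.910). The mean value of Lars2 in saline livers was 278752, above the 135682 of the class I gene H2-K1. Lars2 was highest in saline replicate 47 (500737) and LNA29 replicate 48 (561736) of their groups. Whether all its reads came from that gene was not tested. H2-Aa stood at rank 445 with an r of 0.676, Cd74 at rank 671, and Ctss at rank 4533 with an r of -0.0017. For Cd74 the nearest genes were H2-Eb1 and H2-Aa, then Lsp1 (0.934), Flna (0.930) and Itga2b (0.930), and H2-Ab1 came sixth. These rankings are over 12 livers that share their libraries and are given without a test. The length relation of each library was not a covariate here either, and its part in the rankings was not tested. Saline replicate 47, with the lowest rho of level with transcript length (-0.295), had the highest saline Ifi30 (965), Clec4f (4912) and Rabggta (1386). Among LNA29 livers, replicate 54 (rho 0.0556) had the highest Ifi30 (2192) and Clec4f (4411).

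The ratio of Ifi30 to Clec4f, chosen after these values were seen, is a description, since Clec4f was picked for its likeness to Ifi30 within groups and Ifi30 for its difference between them. It was between 0.113 and 0.196 in saline livers (mean 0.146 ± 0.029, SD, n = 6) and between 0.391 and 0.497 in LNA29 livers (mean 0.460 ± 0.038, SD, n = 6). Clec4f itself was 3624 ± 943 in saline and 3190 ± 942 in LNA29 livers (SD, n = 6 each), with a log2 fold change of -0.19 (limma adjusted p = 0.878).

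**Figure D4:**
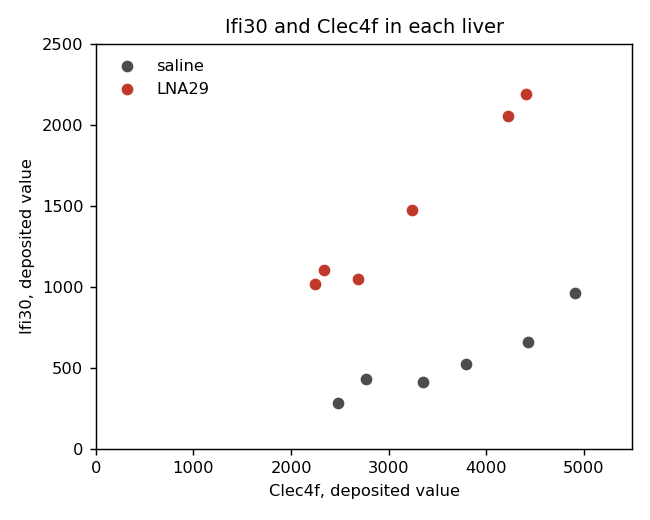
Deposited value of Ifi30 (vertical) against that of Clec4f, a Kupffer cell gene (horizontal), 1 point per liver, grey for saline and red for LNA29, both axes starting at 0. Both genes were picked for patterns in these values, and the picture is a description: there were 0.391 to 0.497 units of Ifi30 for each unit of Clec4f in LNA29 livers and 0.113 to 0.196 in saline livers.

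The wider class II list, 12 genes of which 11 were in the table and 8 passed the filter, had 0 genes called, with 4 log2 fold changes above 0 and 4 below, and a median of 0.019. At an unadjusted limma p under 0.05 there were 0 as well. Without LNA29 replicate 48, 6 of the 8 were below 0 and the median was -0.22. Over all tested genes 4815 log2 fold changes were above 0 and 7671 below, with a median of -0.093, and -0.073 without replicate 48. H2-Ob and H2-Oa, the chains of the H2-DM inhibitor H2-DO, had at most 4 and 2 reads per liver, and the E α pseudogene H2-Ea-ps had none in any liver. The transcription list (Ciita, the RFX and NF-Y subunits and Creb1) had 0 of 8 called, 0 at an unadjusted p under 0.05, and a median of -0.10 (-0.023 without LNA29 replicate 48), with Rfx5 at 82.0 ± 52.6 in saline and 66.8 ± 56.6 in LNA29 livers (SD, n = 6 each).

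In the list of lysosomal processing, of 14 genes, none was called apart from Ifi30, which was chosen from this contrast and does not count as a test. Of the others, 1 gene, Ctsl, was higher at an unadjusted limma p under 0.05 and 0 were lower. Over all tested genes 7.91% passed that unadjusted threshold in either direction. The median of the list, with Ifi30 included, was 0.0089, with 7 log2 fold changes above 0 and 7 below. Ctsl, which trims the invariant chain in thymic epithelium, was 24296 ± 6120 in saline and 34433 ± 9246 in LNA29 livers (SD, n = 6 each; log2 fold change 0.49, limma adjusted p = 0.534). Lgmn, asparagine endopeptidase, was 1901 ± 175 and 2370 ± 505 (log2 fold change 0.29, limma adjusted p = 0.683), and Lamp1, a lysosome membrane protein, had a log2 fold change of -0.18 (limma adjusted p = 0.808).

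Ifi30 is named for its induction by interferon-γ, and most genes of that response had log2 fold changes below 0, without passing the test. Of 13 tested, 0 were called by limma (2 were lower at an unadjusted p under 0.05), 11 had a log2 fold change below 0 and the median was -0.65 (-0.59 without LNA29 replicate 48). Over all 12486 tested genes, 7671 were below 0 and the median was -0.093. Cxcl9, a chemokine, was 104 ± 24.4 in saline and 61.3 ± 21.4 in LNA29 livers (SD, n = 6 each; log2 fold change -0.79, limma adjusted p = 0.630), Gbp2 had a log2 fold change of -1.39 (adjusted p = 0.690 in limma) and Cd274 one of -1.45 (adjusted p = 0.720 in limma). Reads per liver were 2 to 13 for Cxcl9, 0 to 12 for Gbp2 and 0 to 19 for Cd274. For Gbp2 and for Cd274, 1 LNA29 liver had no read, so these fold changes depend on the value given to 0 reads. Ifng was detected in 1 liver, with 1 read. Of 14 genes of MHC class I presentation, 0 were called (1 was lower at an unadjusted p under 0.05) and 10 had a log2 fold change below 0, with a median of -0.070 (-0.028 without LNA29 replicate 48). Nlrc5, the class I counterpart of Ciita, had a log2 fold change of -1.08 (limma adjusted p = 0.614), B2m, the light chain of class I, one of -0.22 (adjusted p = 0.803), and H2-D1, a heavy chain whose reads can be shared with other class I genes, one of 0.17 (adjusted p = 0.862). The list of surface control and co-stimulation had 0 of 4 tested genes called, 0 at an unadjusted p under 0.05, with Cd86 and Cd40 at means under 40 in both groups and a median log2 fold change of -0.083, which was 0.11 without LNA29 replicate 48.

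**Figure D5:**
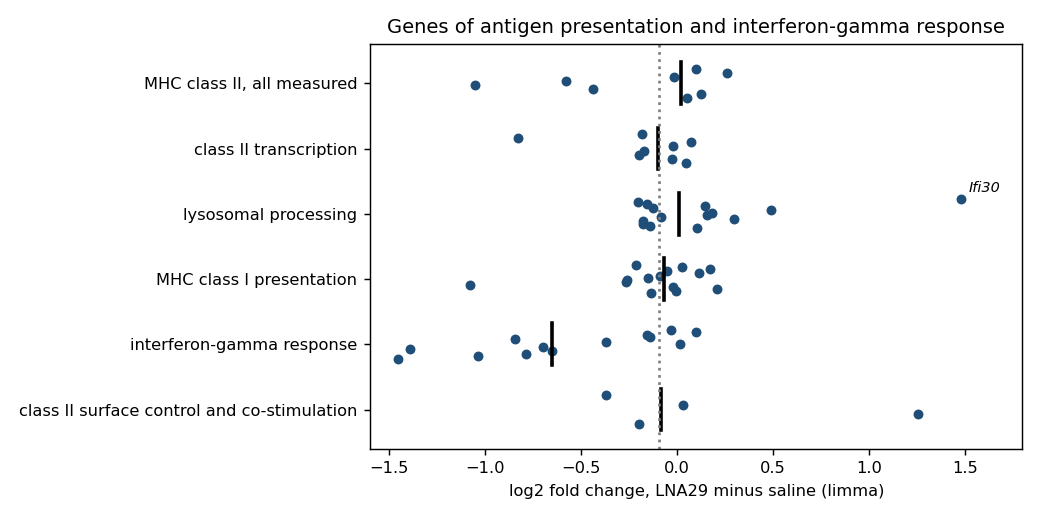
Log2 fold change of each tested gene (points, LNA29 minus saline, limma) in 6 lists of antigen presentation and the interferon-γ response, with a black line at the median of each list and a dotted line at the median of all tested genes. Ifi30 stands at 1.48 in the lysosomal list, and the interferon-γ list has its median at -0.65.

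Markers of the cells that carry class II were tested in the same fit, and 0 passed in any of the 8 marker lists. At an unadjusted limma p under 0.05 there were 2 higher and 2 lower Kupffer cell and macrophage genes and 0 in the other lists. Of 17 Kupffer cell and macrophage genes, 14 had a log2 fold change below 0 (median -0.13, and -0.24 without LNA29 replicate 48), and summed values were 16672 to 25702 in saline and 15286 to 30055 in LNA29 livers. Marco, a scavenger receptor, had a log2 fold change of 1.08 (limma adjusted p = 0.391), Lyz2, a lysozyme of myeloid cells, one of 0.59 (adjusted p = 0.401), Folr2 one of -0.61 (adjusted p = 0.535) and Fcgr1 one of -1.26 (adjusted p = 0.567). All 4 tested B cell genes had a log2 fold change below 0 (median -0.55, and -0.99 without LNA29 replicate 48), with sums of 190 to 706 in saline and 125 to 642 in LNA29 livers. The part of these cell types in the difference of Ifi30 was not tested.

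The proximal promoters of 3 class II members shared a pair of motifs that are known from class II genes, the X box (searched as CTNGNAAC) and the Y box (TGATTGG). Sequences were read from RefSeq (GRCm38.p6), from 250 bases before to 50 after each start, with both strands searched and the letters and spacing chosen after the windows had been seen. X and Y are in capitals.
H2-Aa (chr17:34287852-34287922, minus strand): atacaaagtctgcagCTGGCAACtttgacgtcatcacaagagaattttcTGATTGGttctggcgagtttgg
H2-Eb1 (chr17:34305758-34305827, plus strand): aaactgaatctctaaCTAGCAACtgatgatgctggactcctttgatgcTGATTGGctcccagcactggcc
H2-DMb1 (chr17:34153079-34153149, plus strand): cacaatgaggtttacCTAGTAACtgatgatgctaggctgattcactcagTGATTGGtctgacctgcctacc
The motifs were 25 or 26 bases apart, and an X with a Y 10 to 35 bases after it, on the strand of the gene, was found in 15 of 32851 promoters (0.0457%). An X alone was found in 13.2% and a Y alone in 7.82%. The windows of Ifi30, H2-DMa and Ctss held neither, and H2-Ab1, Cd74 and Ciita have no entry in the table used. H2-Aa and H2-Eb1, with the pair, were the 2 genes nearest to Cd74 from liver to liver. H2-DMb1, also with the pair, stood at rank 1211, and H2-DMa, without a match to the letters searched, at rank 279, both on few reads. A link between the motifs and these ranks was not tested. The window of Ifi30 also held no match to the interferon-γ activated site (TTCNNNGAA), which 8.30% of promoters held.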

How the data were processed

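Polyadenylated RNA of 12 livers was sequenced as single reads. The authors mapped reads with MapSplice2 and estimated reads per gene with RSEM on mm9 (RSEM and the build per the submitters' processing notes, versions not stated), and deposited a signal value for each gene and liver, in which the upper quartile of genes with reads is 1000 and a gene without reads is 1. Columns of the authors' group means, signed fold change and p-value, and 3 unnamed columns, were not used. Reads behind a value were obtained by dividing by the worth of 1 read. In each liver 92.2% to 93.9% of values were whole multiples (within 0.02), so count tests were not applied and all tests ran on log values.

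Libraries had 7696081 to 19062437 reads on genes. limma 3.58.1 (R 4.3.3) with a trend was fitted to log2(value + 1) of 12486 genes (mean value 10 or more), 6 saline against 6 LNA29 livers. P-values were adjusted after Benjamini-Hochberg and 0.05 was the threshold. For low genes the floor of 1 can make a fold change on this scale too small or too large. Single genes were also tested with the two-sided exact permutation test. Labels do not say more than that livers are separate samples, and p-values measure the spread between these samples. In simulated data of 12486 genes the fit called 200 of 200 genes changed 4-fold, among 202 called. There the changed genes had more reads than H2-DMa, H2-DMb1 or Ciita, and all genes were given the same spread. The simulation therefore does not measure the power to find a change in the members. The members, lists and motifs were chosen with earlier results of these data known. Named genes are the 9 members, up to 4 tested genes of each list with the smallest limma p along with genes that define a list, and the 5 genes nearest to Ifi30 and to Cd74. Other genes of the lists were named after their values were seen, and some genes that the rule names are not reported here. The 14 lists have 6 of pathways and 8 of cell markers. Levels per kilobase used the longest protein-coding transcript of GENCODE M21, or the longest transcript where there was none. Alternatives were pseudocounts of 0.1 and 10, other filters, a common median, a length covariate, values beyond 1.5 SD left out, and each liver left out. Python 3.11.15, numpy 2.4.6, scipy 1.17.1 and pandas 2.3.3 were used for the other steps.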

Additional observations from a re-analysis of the deposited data

Results flagged for a closer look

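Among 34 groups of 6 livers examined for a single liver far from the rest, 2 were found, where chance gives about 1 in 20, or 1.7. Cd74 in LNA29 replicate 48 was at 13.693 on the log2(value + 1) scale, while the other 5 LNA29 livers lay between 11.508 and 12.288. The mean log2 level of the T and NK cell list in saline replicate 45 was 5.262, while the other 5 saline livers lay between 4.449 and 4.725.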

How the results depend on the processing

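No paired analysis was possible because the saline and LNA29 livers share no replicate number. The count of other members called stayed at 0 under all alternatives run, and the log2 fold change of Ifi30 lay between 1.31 and 1.67. All 8 were in each fit, except that the filter of a mean of at least 100 left out Ciita. The count of genes called across the table was 20 (9 higher, 11 lower), 10 with all livers brought to one median (6 higher, 4 lower), 124 with the length covariate (37 higher, 87 lower), 217 with values beyond 1.5 SD left out (73 higher, 144 lower), and between 1 and 29 when 1 liver was left out, with 1 gene called without saline replicate 43 or LNA29 replicate 50, 52 or 54, and 3 without saline replicate 51. Values near 0 changed sign: H2-Eb1 was 0.031 with one median, and with values beyond 1.5 SD left out H2-Aa was -0.161 and Cd74 -0.131. Leaving out 1 liver gave -0.243 to 0.194 for Cd74, -0.161 to 0.266 for H2-Aa and -0.334 to 0.192 for H2-Eb1. The median of the class II list lay between -0.22 and 0.15 over all alternatives. Of the 8 relations of members with Cd74, 5 passed, and 3 to 5 when 1 liver was left out, where r was -0.345 to 0.125 for Ciita and -0.705 to 0.411 for Ctss. Ifi30 and H2-DMa were the relations that did not pass in the lower counts, and with group means kept r of Ifi30 was 0.396. The cause of these changes was not tested. Count-based tests planned as alternatives were not run, because too few values were whole multiples of 1 read. Depth limits H2-DMa, H2-DMb1 and Ciita most. The floor of 3 reads covers counting error only, and the intervals the spread between livers.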
